A study of Rattus norvegicus with 10 samples.

Results

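The embryonic and adult globin genes were followed in hearts of fetal rats exposed to maternal hyperglycemia. Of 18025 genes in the deposited table, 8 were chosen by name: the embryonic genes Hbz, Hbe1 and Hbe2 and the adult genes Hba-a1, Hba-a2, Hbb, Hbb-b1 and Hbb-bs. They were chosen from the difference between the groups in these same libraries, so their levels and shares are given as a description, without a test. All 8 passed the filter on low values (an average of 0.1 FPKM or more) and Hbe2 did so only through the HG group, since it was listed at 0 in every CON library.

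The hearts came from wild-type Sprague-Dawley fetuses at embryonic day 19.5 (E19.5). Dams, 3 months old, were injected on 3 days early in pregnancy with streptozotocin (STZ), which destroys insulin-producing cells, or with the citric acid buffer alone. The hyperglycemia (HG) group holds 5 heart libraries from STZ-treated dams, whose blood glucose was to exceed 16 mM, and the control (CON) group holds 5 from buffer-treated dams. The labels do not tie a library to a dam or a litter, and the study's methods speak of RNA pooled from the 10 samples, although the libraries of a group differ in value. Differences are therefore set against the spread between libraries, which may be partly technical.

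Hemoglobin carries oxygen in red cells and is assembled from alpha-like and beta-like chains around haem. Embryonic chains are made by the primitive red cells that leave the yolk sac early in gestation, and definitive red cells, formed in the fetal liver and later in the marrow, make adult chains. In rodents the change from embryonic to adult beta-like genes is direct, without a separate fetal gene stage. Red cells and their precursors are the main known source of globin RNA. In bulk samples such as these fewer cells of a type and less RNA per cell cannot be told apart.

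The values are reads scaled by gene length and library size (FPKM), which allow levels of different genes to be compared per length. Library size lay between 17647158 and 18247127 reads in the CON group and between 16680028 and 19118401 in the HG group, and did not separate them (two-sided exact permutation test of the means, p = 0.770, n = 5 each). The whole reads behind the FPKM could be recovered for 18023 genes, and the members took 0.592% to 1.12% of the reads of a CON library and 0.477% to 0.669% of an HG library. Near-identical copies, above all Hba-a1 with Hba-a2 and Hbb-b1 with Hbb-bs, can exchange reads, and how such reads were assigned is not given in the sources used here, which leaves the split within each pair uncertain.

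The upstream sequences of 4 members are shown so that an embryonic and an adult gene of each chain, whose values differed in opposite directions, can be compared. RefSeq holds a promoter entry for 7 of the 8 members on GRCr8, a later assembly than the build of the deposited values, and no entry for Hbe2. Each line gives the 150 bases before the start of transcription, read 5′ to 3′ on the gene's own strand, with matches to 4 short motifs, spelled out after the sequences, in capitals in either orientation.
Hbz (chr10:15849758-15849907, minus strand): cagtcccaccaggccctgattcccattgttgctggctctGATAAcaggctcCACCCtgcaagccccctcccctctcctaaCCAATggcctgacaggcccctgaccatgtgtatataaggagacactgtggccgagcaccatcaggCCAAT
Hba-a1 (chr10:15842581-15842730, minus strand): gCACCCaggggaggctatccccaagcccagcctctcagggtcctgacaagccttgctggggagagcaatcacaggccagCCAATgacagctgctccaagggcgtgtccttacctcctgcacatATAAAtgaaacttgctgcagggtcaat
Hbe1 (chr1:167696281-167696430, minus strand): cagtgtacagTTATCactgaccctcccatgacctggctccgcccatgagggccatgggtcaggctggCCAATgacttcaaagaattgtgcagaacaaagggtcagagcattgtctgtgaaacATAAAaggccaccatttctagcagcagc
Hbb (chr1:167663722-167663871, minus strand): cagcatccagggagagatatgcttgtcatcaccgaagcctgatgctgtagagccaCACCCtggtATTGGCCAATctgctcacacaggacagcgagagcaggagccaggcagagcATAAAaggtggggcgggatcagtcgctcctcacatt

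All 7 promoters held CCAAT, a box found in 23.5% of the 33469 RefSeq promoters over the same length. CACCC, the core of sites for KLF factors, was in every one but Hbe1 (35.2% of all promoters). ATAAA, part of a TATA-like box, was in every one but Hbz (25.7% of all), which holds the TATA-like stretch tatataag that this spelling misses. GATAA, 1 spelling of the core of GATA factor sites, was in the embryonic Hbz, at bases -111 to -107, and Hbe1, on the other strand at -140 to -136. This spelling was in none of the 5 adult promoters (14.2% of all). Other spellings were not searched, and the adult Hba-a1, Hbb-b1 and Hbb-bs hold GATAG on the other strand. In this window GATAA and ATAAA can share letters, but none of the matches did so. A letter match is not evidence of a bound site. The promoters of Hba-a1 and Hba-a2 were identical at 144 of 150 aligned bases (96.0%) and those of Hbb-b1 and Hbb-bs at 95.4% of aligned columns, whereas Hbz shared 53.1% with Hba-a1 and Hbe1 shared 52.0% with Hbb.

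Hbz (NCBI Gene 287168), the embryonic alpha-like chain zeta, was almost absent from CON hearts and clearly present in HG hearts. Its level was 3.28, 3.16, 1.54, 1.49 and 2.49 FPKM in CON libraries 1 to 5, which rests on 16 to 35 reads each. In HG libraries 1 to 5 it was 80.4, 33.8, 31.2, 38.8 and 30.4 FPKM, from 299 to 905 reads. The lowest HG library stood far above the highest CON library, and HG 1 stood well above the other HG libraries. The HG mean of 42.9 ± 21.2 FPKM was 17.9-fold the CON mean of 2.39 ± 0.856 FPKM (SD, n = 5 in each group), with a log2 difference of 4.07 (standard error 0.285) on the log2(FPKM + 0.1) scale.

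Hbe1 (293267), the embryonic beta-like chain epsilon, was the better expressed of the embryonic genes in both groups. It was at 52.0, 65.1, 36.5, 39.2 and 45.2 FPKM in CON libraries 1 to 5. HG libraries 1 to 5 held 393, 216, 197, 223 and 141 FPKM. The groups did not overlap, and HG 1 was again the highest. The HG mean, 234 ± 94.7 FPKM, was 4.91-fold the CON mean, 47.6 ± 11.5 FPKM (SD, n = 5 in each group), with a log2 difference of 2.24 (standard error 0.228).

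Hbe2 (502359), a further embryonic beta-like gene, was at the edge of detection. No read lay on it in any CON library, and HG libraries 1 to 5 held 2, 3, 2, 5 and 2 reads, or 0.236, 0.367, 0.260, 0.638 and 0.270 FPKM. If the count of 0 over the CON group is taken as up to 3 reads, the level from the 14 HG reads was 4.70-fold that ceiling. This ratio leaves out the counting error of the HG reads and is not a lower bound. Reads that strayed from the similar Hbe1 cannot be told from reads of Hbe2. The 3 embryonic genes were thus each higher in all 5 HG libraries than in any CON library, a separation that 19.3% of the 14542 genes tested showed in this direction and 8.12% in the other. Since the genes were chosen by this contrast, nothing follows from their count.

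The adult genes were lower on average in HG hearts, but the groups overlapped for all 5. Hba-a1 (25632), an adult alpha chain, was at 10085, 9116, 5530.4, 6917 and 6288 FPKM in CON libraries 1 to 5 and at 5061, 5890.4, 5509.8, 5368 and 4164 FPKM in the HG libraries. Hba-a2 (360504), its near-identical neighbour, was at 6119, 6496, 2893, 4692 and 3939 FPKM in CON hearts and at 2599.6, 3672, 3528, 2943 and 2543 FPKM in HG. In both genes CON 1 and CON 2 were highest and CON 3 lay within the HG range. The log2 differences were -0.52 (standard error 0.154) for Hba-a1 and -0.62 (0.197) for Hba-a2, and the mean CON level was 1.46-fold and 1.58-fold that of HG.

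Among the adult beta chains, too, CON 1 and CON 2 were the highest libraries. Hbb (24440), the most abundant beta chain gene here, was at 2367, 2672, 1411, 1562 and 1273 FPKM in CON libraries 1 to 5 and at 1086, 1315, 1093, 1141 and 971 FPKM in HG. Hbb-b1 (361619) was at 782, 752, 375, 519 and 406 FPKM in CON hearts and at 325, 355, 339.9, 379 and 289 FPKM in HG. Hbb-bs (689064) was at 220.5, 296, 109, 177 and 137 FPKM in CON hearts and at 99.1, 94.2, 108, 132 and 107 FPKM in HG. For each beta gene, 4 of 5 HG libraries lay below the lowest CON library, and 4 of 5 CON libraries lay above the highest HG library. Their log2 differences were -0.67 (standard error 0.182), -0.69 (0.187) and -0.72 (0.216).

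**Figure D1:**
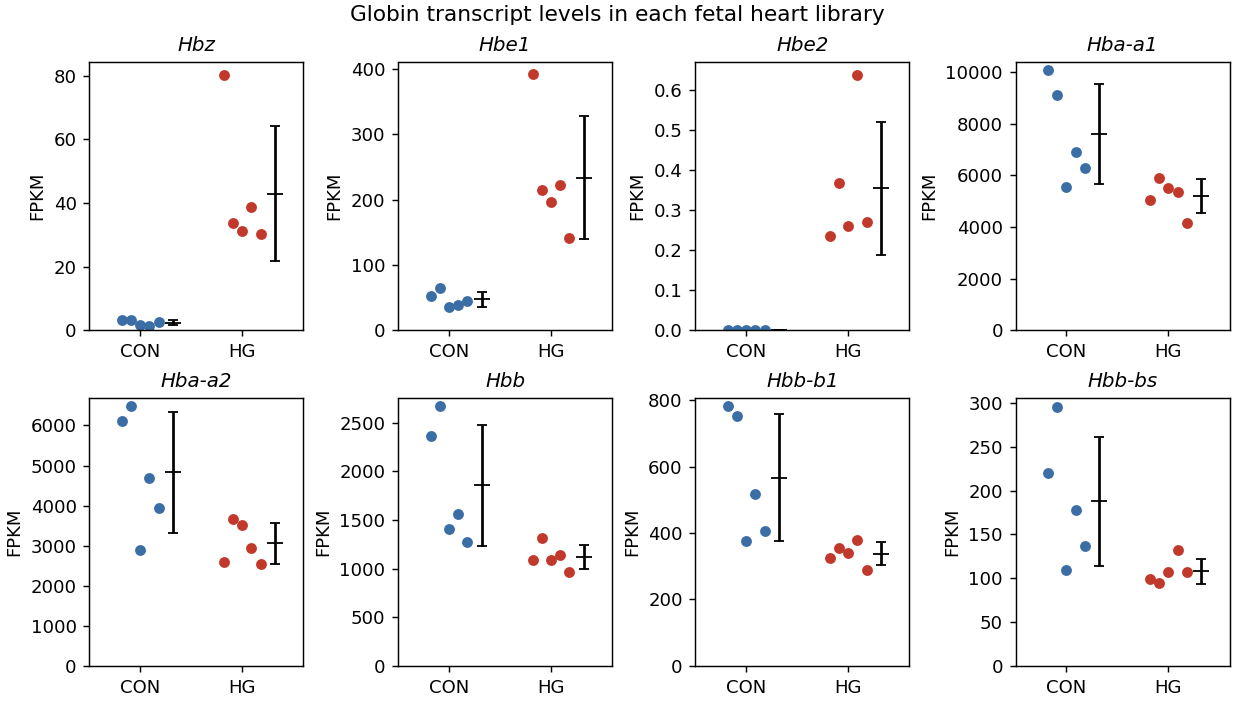
FPKM (y axis, from 0, a separate scale for each gene) of the 8 globin genes in the 5 CON (blue) and 5 HG (red) libraries, each point a library in replicate order, with the mean and SD in black. Hbz, Hbe1 and Hbe2 are higher in every HG library, and the 5 adult genes are highest in CON 1 and CON 2 and overlap between the groups.

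CON 1 and CON 2 carried much of the adult difference. The summed FPKM of the 5 adult genes was 19574 and 19333 in these libraries, 10318 to 13867 in the other CON libraries and 8073 to 11327 in the HG libraries. Without CON 1 and CON 2 the log2 differences shrank to -0.27 for Hba-a1, -0.32 for Hba-a2, -0.34 for Hbb, -0.35 for Hbb-b1 and -0.37 for Hbb-bs. The embryonic differences did not shrink with that omission, at 4.40 for Hbz and 2.46 for Hbe1.

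The order of levels changed at one point between the groups. In CON hearts the genes ran from Hba-a1 through Hba-a2, Hbb, Hbb-b1, Hbb-bs, Hbe1 and Hbz down to Hbe2, an order kept in 5 of 5 libraries, and only the ranges of Hba-a1 and Hba-a2 overlapped. HG hearts had Hbe1 above Hbb-bs in 5 of 5 libraries, next to Hbb-b1. The ranges of Hbb-b1 and Hbe1 overlapped there, with Hbb-b1 above in 4 of 5 libraries and Hbe1 above in HG 1. No other neighbours in the HG order had ranges that overlapped.

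Shares within each chain do not depend on how much globin RNA a library holds in all. Hbz made up 0.0202%, 0.0203%, 0.0183%, 0.0129% and 0.0244% of the alpha-like sum (Hbz, Hba-a1 and Hba-a2) in CON libraries 1 to 5, and 1.04%, 0.352%, 0.344%, 0.465% and 0.452% in HG libraries 1 to 5. Even in HG 1, then, nearly all alpha-like RNA was adult. The group means were 0.0192% ± 0.00419 and 0.530% ± 0.289 (SD, 5 libraries per group). Hba-a1 held 61.5% ± 2.79 of the sum in CON hearts and 62.7% ± 2.00 in HG, and the groups overlapped in this split of the adult alpha pair.

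On the beta side the embryonic share was larger. Hbe1 and Hbe2 together made up 1.52%, 1.72%, 1.89%, 1.71% and 2.43% of the beta-like sum (with Hbb, Hbb-b1 and Hbb-bs) in CON libraries 1 to 5. In the HG libraries they made up 20.7%, 10.9%, 11.3%, 11.9% and 9.36%. The means were 1.85% ± 0.346 in CON hearts and 12.8% ± 4.48 in HG (SD, 5 libraries per group), or 3.27% and 20.7% in recovered reads, where the longer Hbe1 weighs more. Hbb held 69.8% ± 2.06 of the sum in CON hearts and 62.3% ± 3.58 in HG hearts without overlap, while Hbb-b1 (21.3% ± 1.58 and 18.8% ± 1.27) and Hbb-bs (6.99% ± 0.930 and 6.06% ± 1.06) overlapped between the groups.

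**Figure D2:**
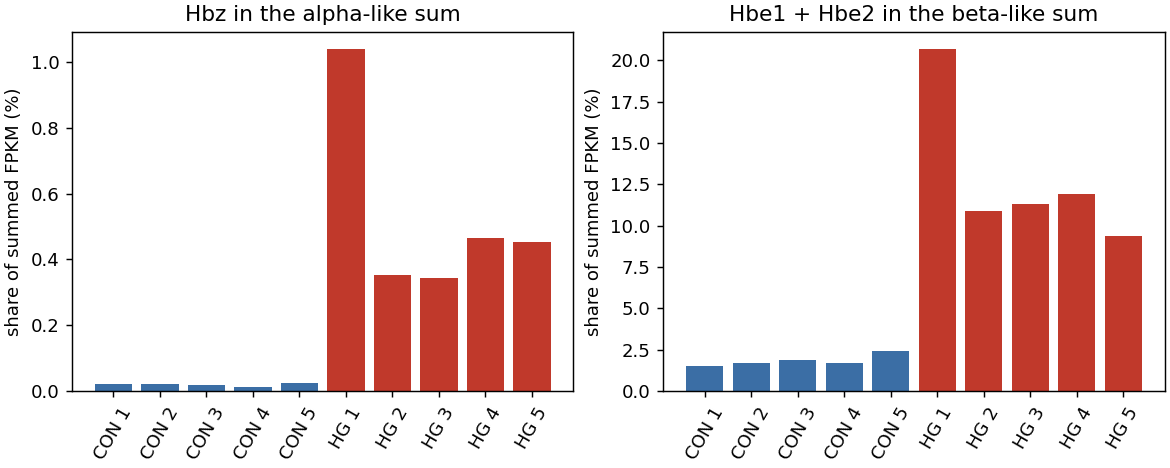
Share of summed FPKM (%, y axis from 0) taken by Hbz in the alpha-like sum (left) and by Hbe1 with Hbe2 in the beta-like sum (right), one bar per library, CON blue and HG red. All CON bars lie at or below 0.0244% on the left and 2.43% on the right, all HG bars lie at or above 0.344% and 9.36%, and HG 1 is highest in both.

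The chains stayed in a like proportion to each other. The beta-like sum was 0.213 ± 0.0241 of the alpha-like sum in CON hearts and 0.218 ± 0.0205 in HG, with overlap. For the adult genes alone the ratio was 0.209 ± 0.0240 and 0.191 ± 0.0134 (SD, 5 libraries per group), also with overlap. The embryonic genes did not keep their proportion. Embryonic beta-like FPKM was 15.9 to 26.3 times Hbz FPKM in the CON libraries and 4.63 to 6.39 times in the HG libraries, and the low CON read numbers of Hbz limit the former.

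The members together took 3.23% ± 0.861 of all FPKM in CON hearts and 2.23% ± 0.264 in HG (SD, 5 libraries per group), with overlap. Measured per unit of Alas2, which makes the first step of haem synthesis in red cells, the adult sum was 399.7 ± 41.2 in CON hearts and 380.1 ± 62.8 in HG and overlapped. Hbz was 45.4 to 89.5 for each 1000 units of Alas2 in CON hearts and 1273 to 2543 in HG. Hbe1 per FPKM of Alas2 was 0.919 to 1.62 in CON hearts and 7.06 to 12.4 in HG. Per unit of Alas2 the embryonic genes thus still separated the groups, and the adult sum overlapped as it did in FPKM. Alas2 was itself lower on average in HG (log2 difference -0.49), with CON 1 and CON 2 highest. The part of red cell amount in these values was not tested.

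Within the groups, Hbz and Hbe1 varied together, as did the adult genes, while Hbe2 followed neither of the other embryonic genes. Correlations of log2(FPKM + 0.1), centred on the group mean, are given as a description over 10 libraries that share their depth and composition between genes. Hbz and Hbe1 had r = 0.904, and Hbe2, with its few reads, had r = -0.168 with Hbz and -0.091 with Hbe1. Pairs of adult genes had r from 0.749 (Hba-a1 with Hbb-bs) to 0.951 (Hba-a1 with Hbb-b1). Hbz had r from 0.288 (Hba-a2) to 0.487 (Hba-a1) with the adult genes, and Hbe1 from 0.352 to 0.535.

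**Figure D3:**
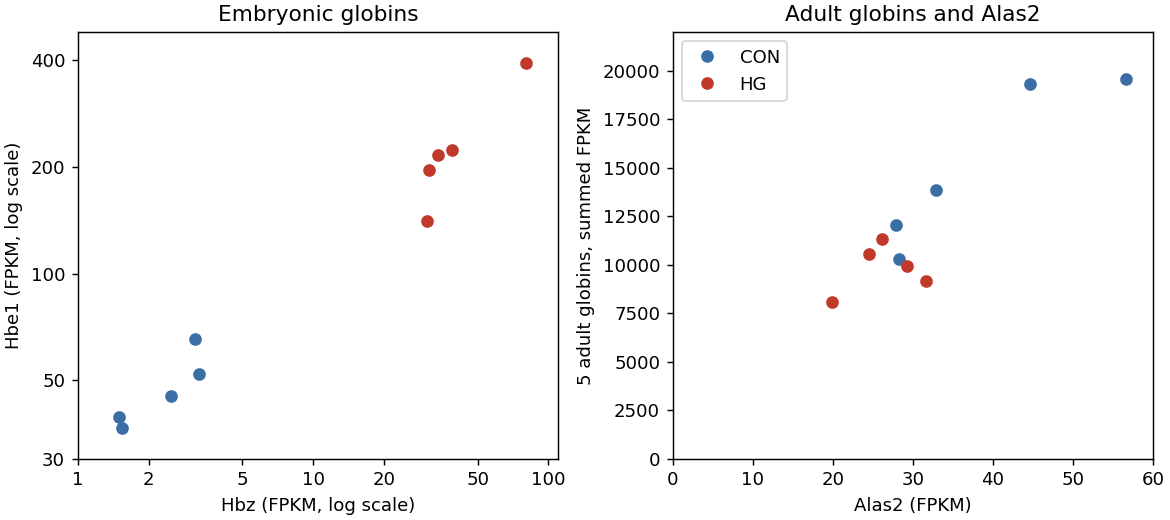
Left, Hbe1 against Hbz (FPKM, both axes on log scales), and right, the summed FPKM of the 5 adult globin genes against Alas2 (FPKM, linear axes from 0), one point per library, CON blue and HG red. Embryonic genes separate the groups with HG 1 at the top, and on the right CON 1 and CON 2 stand apart at 19574 and 19333 summed FPKM, with CON 3 alone of the CON libraries inside the HG range of 8073 to 11327.

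Among 11702 other genes averaging 1 FPKM or more, those most like Hbz by this measure were Gpr107 (r = 0.892), Zbtb16 (0.882), Ptges2 (0.881), Cdr2 (0.873) and Cnn2 (0.865). For Hbe1 they were Akr7a3 (0.941), Bcl7c (0.940), Ptges2 (0.927), Pramef8 (0.899) and Imp4 (0.872). The sum of the adult genes was most like Cdc25b (0.953), Evc2 (0.919), Ccny (0.916), Auh (0.912) and Usp3 (0.912). None of these genes is in the lists of red cell, haem or iron genes used here, and each is the highest of many values over only 10 libraries.

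The remaining globins of the clusters were not among the members and could be tested. The alpha cluster, on chromosome 10 of GRCr8, runs in coordinate order from Hbq1 through Hba-a3, Hba-a2, Hbq1b and Hba-a1 to Hbz, with Nprl3 next. Hba-a3 (287167), another adult-type alpha gene, was at 259, 236, 156, 88.4 and 154 FPKM in CON libraries 1 to 5 and at 51.8, 54.6, 61.9, 65.2 and 54.6 FPKM in HG, without overlap. Its log2 difference was -1.54 (standard error 0.229, limma, adjusted p = 2.76e-04), and it kept its call in 21 of 21 alternative settings. Its promoter shared 74.8% of aligned columns with that of Hba-a1. Hbq1b, a theta-like gene, had a log2 difference of -0.47 (adjusted p = 0.117), and Hbq1 lay below the filter. Nprl3, whose introns hold the distant enhancers of the alpha cluster in mammals, had a log2 difference of 0.20 (adjusted p = 0.0953).

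The beta cluster, on chromosome 1, runs from Hbb-bs through Hbb-b1, Hbbl1, Hbb-b2, Hbb, Hbg1 and Hbe2 to Hbe1. Hbg1 (94164) lies between the adult and the embryonic genes and was not counted in the embryonic beta-like share above. It was at 27.0, 16.9, 16.8, 8.91 and 8.02 FPKM in CON libraries 1 to 5. In HG it was at 20.1, 19.4, 15.8, 22.8 and 17.6 FPKM, and the groups overlapped. Its log2 difference of 0.43 (standard error 0.272) did not pass the test (limma, adjusted p = 0.231). CON 1 decided this, since without it the difference was 0.66 (adjusted p = 0.0333), and without CON 1 and CON 2 it was 0.83 (adjusted p = 0.0129). As a share of the beta-like sum over all globin genes of the cluster, Hbg1 rose from 0.542% ± 0.208 to 0.987% ± 0.110 without overlap, a description that uses the members. Hbbl1 (listed as LOC100134871) was lower in HG (log2 difference -0.64, adjusted p = 0.0460), a call lost without any of CON 1, 2 or 3 or HG 1 to 5 (adjusted p 0.0529 to 0.108). Hbb-b2 (listed as LOC120093065) had a log2 difference of -0.24 (adjusted p = 0.461).

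**Figure D4:**
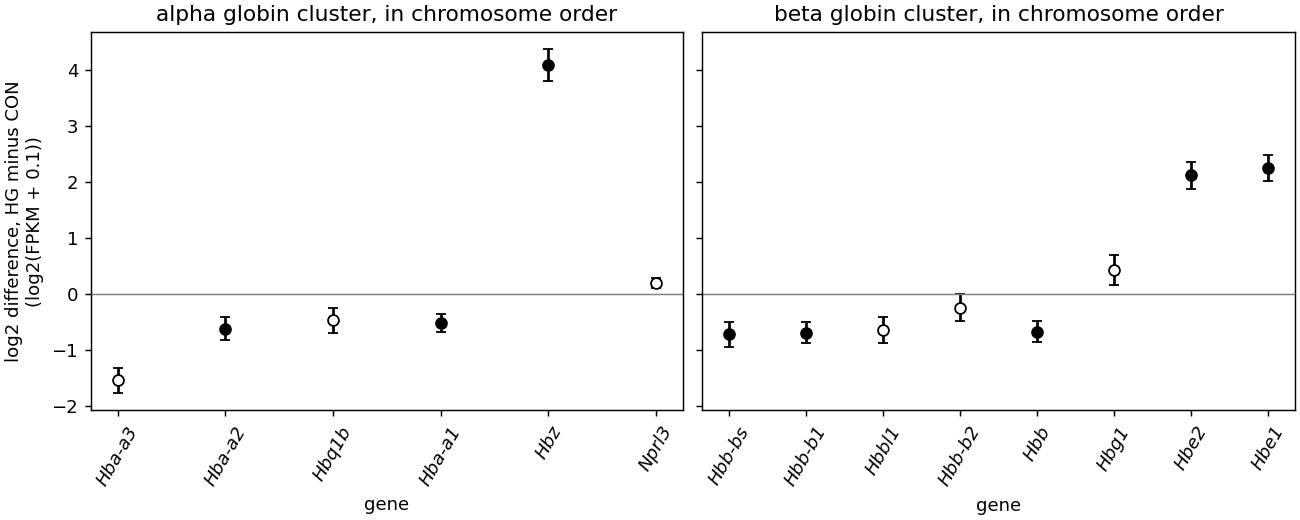
Log2 difference of log2(FPKM + 0.1), HG minus CON (y axis), with its standard error, for globin genes of the alpha cluster (left, with Nprl3) and the beta cluster (right) in chromosome order, without distances. Filled points are the 8 members and open points other genes. Hbz stands at 4.07, Hbe1 at 2.24 and Hbe2 at 2.12 at one end of their clusters, and the 5 adult members lie between -0.72 and -0.52.

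Of the 8 tested genes outside the members in the globin family, 0 were called higher in HG and 4 were called lower in limma at an adjusted p under 0.05 (2 to 4 called in all with 1 library left out, the fewest without HG 1, HG 3 or HG 5), with a median log2 difference of -0.36. Over all 14542 genes tested, 28.4% were called higher and 11.8% lower, with a median of 0.09. The largest decrease was that of Mb, the oxygen store of muscle, from 1194 ± 128 to 379 ± 43.4 FPKM (log2 difference -1.66, adjusted p = 2.41e-07). Cygb, a globin of fibroblasts, was also called lower (-0.26, adjusted p = 0.0221), and this call was lost without CON 4, CON 5, HG 1, HG 3 or HG 5 (adjusted p 0.0503 to 0.0573). The split of calls depended on scaling. With median-of-ratios factors 47.1% of called genes were higher, against 70.7% in the deposited FPKM.

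Genes of the red cell precursor were more often called lower than higher. Of 36 tested, 19 were lower and 1 higher, with a median log2 difference of -0.33, and 16 did not pass the test. These are 52.8% lower and 2.78% higher, against 11.8% and 28.4% over all genes tested. Without CON 1 and CON 2, 16 were lower and 2 higher. The largest decreases were those of Car1, a red cell carbonic anhydrase (-1.45, adjusted p = 5.54e-04), Sptb, beta spectrin of the membrane skeleton (-1.04, adjusted p = 1.80e-06), and Ank1, which anchors it (-1.04, adjusted p = 1.39e-06). Slc4a1, the anion exchanger band 3, fell from 13.9 ± 2.00 to 9.38 ± 1.81 FPKM (-0.56, adjusted p = 0.00425). Acp5, an acid phosphatase of osteoclasts and macrophages as well, was the gene called higher (0.97, adjusted p = 6.79e-06). The summed level of the list was 673 to 755 FPKM in CON hearts and 511 to 554 FPKM in HG, most of it from genes that heart and vessel cells also express, such as Mgst3, Aqp1 and Tmod1.

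Haem is made in steps shared by all tissues, with a first enzyme particular to red cells. Of 19 haem synthesis genes, 8 were lower and 1 higher (median -0.17), or 42.1% and 5.26%, beside 11.8% and 28.4% over all genes tested. When CON 1 and CON 2 were left out, 5 were lower and 1 higher, and with median-of-ratios factors 13 and 0. Alas2 was at 56.6, 44.7, 28.3, 32.8 and 27.9 FPKM in CON libraries 1 to 5 and at 31.6, 26.1, 24.5, 29.3 and 19.9 FPKM in HG. Its log2 difference of -0.49 (standard error 0.187) missed the threshold (adjusted p = 0.0531) and passed it in 7 of 21 alternatives, among them those without CON 3, CON 5 or HG 1 (adjusted p 0.0292 to 0.0448). Over all alternatives its adjusted p ran from 0.00755 with a replicate block to 0.298 without CON 1 and CON 2, where the difference was -0.19. Alas1, its counterpart in all tissues, was lower (-0.47, adjusted p = 9.31e-06), as were the outer-membrane protein Tspo (-0.46, adjusted p = 6.61e-04) and the glycine carrier Slc25a38 (-0.28, adjusted p = 0.00330). Ppox was higher (0.22, adjusted p = 0.0217), a call lost without CON 3, HG 2 or HG 3 (adjusted p 0.0504 to 0.0543). Fech, which inserts the iron, had a log2 difference of -0.07 (adjusted p = 0.336).

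Of 15 iron uptake genes, 3 were lower and 2 higher (median -0.07). These are 20% and 13.3%, beside 11.8% lower and 28.4% higher over all genes tested. The ferrireductase Steap3 (-0.48, adjusted p = 6.05e-04), the ferritin receptor Ncoa4 (-0.33, adjusted p = 0.00142) and Aco1 (-0.13, adjusted p = 0.00759) were lower. Ireb2 (0.17, adjusted p = 0.00757) was higher. The transferrin receptor Tfrc was also higher (0.45, adjusted p = 0.0255), a call lost without CON 1, 2 or 4 or HG 1 or 5 (adjusted p 0.0511 to 0.0632). Among 16 partners of globin and haem, 5 were lower and 2 higher (median -0.09). These are 31.25% and 12.5% of them, against the same 11.8% and 28.4% over all genes. Cd163, the scavenger receptor for hemoglobin on macrophages, fell most (-1.77, adjusted p = 8.65e-04). Ahsp, the chaperone of free alpha chains, was at 30.1, 21.3, 18.9, 14.6 and 14.0 FPKM in CON libraries 1 to 5 and at 10.7, 12.1, 10.9, 14.6 and 9.62 FPKM in HG (-0.73, adjusted p = 0.00758), with CON 1 highest, as in Hba-a1. Hmox1, which breaks haem down, was lower (-0.45, adjusted p = 0.00602). Lrp1, the receptor of haem bound to hemopexin, was higher (0.37, adjusted p = 3.05e-04), as was Blvra, which reduces biliverdin (0.17, adjusted p = 0.0454), whose call was lost without any of CON 2 to 5 or HG 2 to 4 (adjusted p 0.0605 to 0.111).

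The regulators of globin genes were more often called higher. Of 42 tested, 20 were higher in HG and 2 lower (median 0.19), and with median-of-ratios factors 14 were higher and 2 lower (median 0.10). In the deposited FPKM these are 47.6% higher and 4.76% lower, beside 28.4% and 11.8% over all genes tested. More higher than lower calls was thus also the pattern over all genes there. With median-of-ratios factors it was not, with 2271 of all genes tested called higher and 2551 lower. Of the factors known to silence embryonic or fetal globins, 4 DNA-binding ones did not pass the test. Bcl11a averaged 1.36 ± 0.126 FPKM in CON hearts against 1.58 ± 0.145 FPKM with hyperglycemia (log2 difference 0.20, adjusted p = 0.126), Zbtb7a had a log2 difference of -0.00 (adjusted p = 0.970), Sox6 of -0.07 (adjusted p = 0.687) and Myb of 0.31 (adjusted p = 0.254). Nor did the test call the red cell activators Gata1 (-0.32, adjusted p = 0.181), Klf1 (-0.27, adjusted p = 0.417) and Nfe2 (-0.06, adjusted p = 0.805). The mean level of these 7 genes was at or below 1.58 FPKM in both groups, except for Zbtb7a, and other heart cells can contribute to them. Other silencers in the list were called higher: the nuclear receptor Nr2c1 (0.45, adjusted p = 2.73e-04), its partner Nr2c2 (0.20, adjusted p = 0.00757), the DNA methyltransferase Dnmt1 (0.31, adjusted p = 1.67e-04) and the corepressor genes Hdac1 (0.50, adjusted p = 1.09e-06), Hdac2 (0.25), Kdm1a (0.26), Rcor1 (0.28), Chd4 (0.20), Ehmt2 (0.20) and Mbd2 (0.14). These general factors act in most cells. The related Mbd3 (-0.04, adjusted p = 0.652) and Ehmt1 (0.08, adjusted p = 0.157) of the same list were not called in limma. Nfia of the list, also DNA-binding, was called higher (0.24, adjusted p = 0.00333), and the related Nfix was not called (-0.05, adjusted p = 0.497). With median-of-ratios factors Nr2c2, Ehmt2 and Mbd2 were not called (adjusted p 0.0884, 0.0819 and 0.472), and the call of Mbd2 was also lost without CON 1, 3 or 4 or HG 1, 4 or 5. Tal1 was called higher (0.33, adjusted p = 0.0241), a call lost without CON 4, HG 2 or HG 3 (adjusted p 0.0581 to 0.0629).

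Lin28b, Hmga2 and Igf2bp1, RNA-binding and chromatin proteins of fetal tissues, rose most among the regulators. The list was chosen with earlier results of these data known, so this rank and the list's counts are a description. Lin28b, known to hold blood formation in a fetal state, was at 0.146, 0.212, 0.190, 0.300 and 0.368 FPKM in CON libraries 1 to 5 and at 1.02, 0.862, 1.20, 0.508 and 1.26 FPKM in HG. The groups did not overlap (log2 difference 1.62, standard error 0.242, adjusted p = 2.81e-04). Hmga2 rose from 7.08 ± 0.307 to 15.2 ± 1.43 FPKM (1.08, adjusted p = 5.33e-07), Igf2bp1 from 11.1 ± 1.06 to 17.0 ± 1.47 FPKM (0.62, adjusted p = 7.08e-05) and Igf2bp3 from 14.9 ± 0.405 to 18.3 ± 0.963 FPKM (0.29, adjusted p = 3.22e-04; SD, n = 5 each). The genes lower in HG were Kit, the stem cell factor receptor (-0.50, adjusted p = 4.00e-05), and Klf2, a factor of embryonic red cells and of endothelium (-0.49, adjusted p = 0.0102). HG 1, highest in Hbz and Hbe1, was not the highest library in Lin28b.

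**Figure D5:**
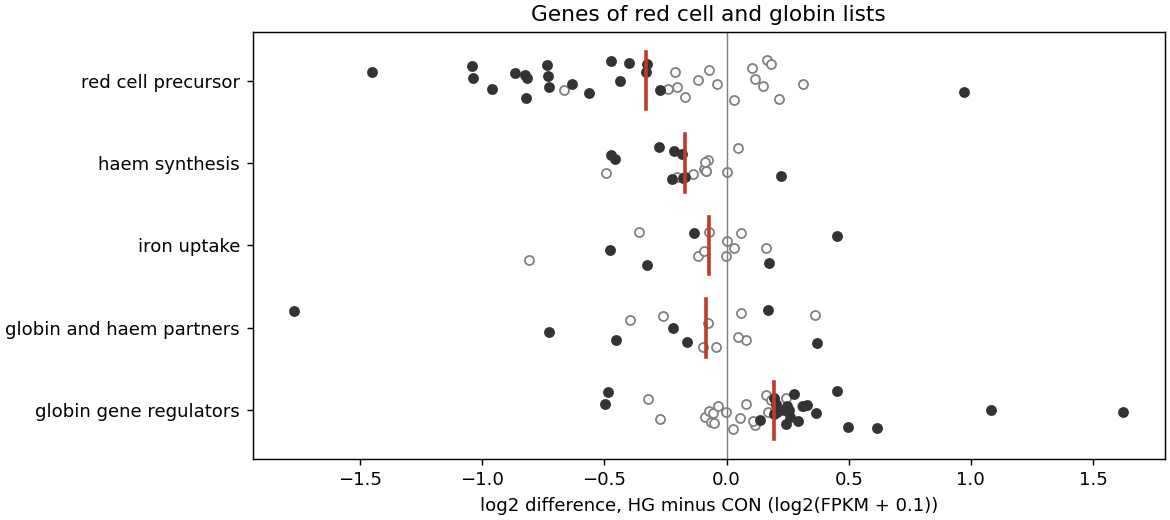
Log2 difference of log2(FPKM + 0.1), HG minus CON (x axis), of each tested gene in 5 lists of red cell and globin genes (y axis, points spread vertically within a list only to be seen). Filled points have an adjusted p under 0.05 in limma, open points do not, and red bars are list medians, at -0.33, -0.17, -0.07, -0.09 and 0.19 from top to bottom.

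Neighbours of the clusters outside the globins were called in both directions. Of 13 genes around the alpha cluster 2 were higher, Mpg (0.34, adjusted p = 0.0344) and Axin1 (0.16, adjusted p = 0.0157), and 2 lower, Polr3k (-1.11) and Pdia2 (-1.03, adjusted p = 0.00805), against 28.4% higher and 11.8% lower over all genes tested, and with median-of-ratios factors 0 were higher and 2 lower. Polr3k, a subunit of RNA polymerase III, fell from 49.1 ± 2.54 to 22.8 ± 2.14 FPKM (SD, n = 5 each; adjusted p = 3.57e-07). Mpg lost its call in 8 of the 10 single-library omissions, all but those of CON 5 and HG 5 (adjusted p 0.0504 to 0.0843). Around the beta cluster 6 of 18 were higher, led by Trim6 (0.95, adjusted p = 0.00262), Nup98 (0.23, adjusted p = 0.00157) and Pgap2 (0.21, adjusted p = 0.0171), and 2 lower, Stim1 (-0.29, adjusted p = 0.0104) and Smpd1 (-0.26, adjusted p = 0.00113). These are 33.3% and 11.1% of the 18, close to the shares over all genes. With median-of-ratios factors 2 were higher and 2 lower there, and without CON 2 or HG 1, 3 were higher.

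Markers of other cells were measured beside the globins. Defining heart genes were abundant, such as Myh7, at 2640 ± 106 FPKM (CON) and 2126 ± 147 FPKM (HG). Of 16 cardiomyocyte genes 12 were lower, led by Myh6 (-1.03), Ryr2 (-0.62) and Tnni3 (-0.54), and 1 higher, Nppa (0.71). Of 14 endothelial genes 3 were higher, Emcn (0.29), Tie1 (0.20) and Esam (0.13), and 0 lower, and with median-of-ratios factors 1 was higher and 2 lower. White cell genes gave 1 higher, Cd68 (0.59), and 2 lower of 12, S100a9 (-1.33) and Lyz2 (-0.79). Platelet genes gave 2 higher of 12, Clec1b (0.60) and Itgb3 (0.29), and 0 lower. Called higher were 6.25% of cardiomyocyte, 21.4% of endothelial, 8.33% of white cell and 16.7% of platelet genes, against 28.4% over all genes tested. Called lower, in the same order, were 75.0%, 0%, 16.7% and 0%, against 11.8%. Esam, Clec1b and Itgb3 each lost their call in at least 3 single-library omissions, and 0 platelet genes were called without CON 1, CON 2 or HG 1. The T cell genes Cd3e and Cd3g and the neutrophil precursor genes Mpo and Elane lay below the filter.

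Fetal red cells mature in the liver, and genes typical of liver cells differed in level between libraries. The summed level of 16 liver genes was 8.42 FPKM in CON 1, 111 FPKM in CON 3, and from 13.7 FPKM upward in the other CON libraries, against 8.30 to 10.6 FPKM in the HG libraries. Of 15 tested, 7 were lower in HG and 0 higher, led by Afp (-3.26, adjusted p = 0.0174), Alb (-2.83, adjusted p = 0.0472) and Ahsg (-2.36, adjusted p = 0.0239), against 4 of 11 without CON 3 and 2 with a pseudocount of 1. The 7 genes are 46.7% of those tested, beside 11.8% lower and 28.4% higher over all genes. The call of Alb was lost in every single-library omission except that of CON 1 (adjusted p 0.0577 to 0.0970). CON 3, highest in liver genes, had the lowest CON sum of adult globins, and CON 1, highest in the adult sum, had the lowest CON liver level. CON 2, however, had an adult sum near that of CON 1 (19333 and 19574 FPKM) and the highest CON liver level after CON 3. Without CON 3 the adult log2 differences were -0.62 for Hba-a1, -0.78 for Hba-a2, -0.76 for Hbb, -0.82 for Hbb-b1 and -0.89 for Hbb-bs. The part of blood, liver and other cells in the globin values was not tested further.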

How the data were processed

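Messenger RNA libraries of fetal rat hearts (5 CON, 5 HG) were analysed from the deposited FPKM, in which the authors divided reads per gene by gene length and library size. The submitters' processing notes name fastp, HISAT2, HTSeq, R 3.2.0 and the build mRatBN7.2. All sample columns were used (0 unused). The members and gene lists were chosen with earlier results of these data known.

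Whole reads, gene lengths and library sizes were recovered from the FPKM steps for 99.9889% of genes (Python 3.11.15, numpy 2.4.6, pandas 2.3.3, scipy 1.17.1), with a tolerance of 0.0003 reads. For genes averaging 0.1 FPKM or more, log2(FPKM + 0.1) entered limma 3.58.1 (trend, no covariate) in R 4.3.3, with p-values adjusted by Benjamini-Hochberg over all 14542 tested, while 3483 fell below the filter. DESeq, which the methods name, takes counts and was not used. Fold changes on this scale understate those of low genes. Both steps were tested on simulated data. A library holds 16680028 to 19118401 reads, so that 3 reads on Hbe2 are 0.353 to 0.405 FPKM.

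Symbols of 13 lists were matched by name or gene identifier (246 of 273), and 1 was removed because its identifier named a heat shock gene. Named were all members, the 3 genes of each list most increased and most decreased among those called, fixed regulators and red cell genes (some are not reported here), and the 5 genes most like Hbz, Hbe1 and the adult sum. Hbq1, Hbq1b, Hbg1, Hbbl1, Hbb-b2, Mgst3, Aqp1, Tmod1, Myh7, the low white cell genes, the called silencers, Mbd3, Ehmt1, Nfia and Nfix were named after their values were seen. Promoters are RefSeq's on GRCr8, aligned with Biopython 1.88. Alternatives were pseudocounts of 1 and 0.01, other filters, median-of-ratios factors, globins left out of the total, no trend, array weights, a replicate block, ratios of means, and each library left out. Voom on the recovered reads, omission of CON 1 and CON 2, shares in reads and shares over all cluster globins were added after seeing the data.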

Additional observations from a re-analysis of the deposited data

Results flagged for a closer look

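HG library 1 stood apart in the embryonic globins. Its Hbz level of 80.4 FPKM was far from the other HG libraries, which lay between 30.4 and 38.8 FPKM. The same library held 1.04% of its alpha-like sum as Hbz, against 0.344% to 0.465% in the other HG libraries, and 20.7% of its beta-like sum as Hbe1 and Hbe2, against 9.36% to 11.9%. In each case the gap to the nearest library, divided by the range of the group, was beyond the 95% limit of Dixon's test. These were 3 of 23 groups of values tested, where chance alone gives about 1 in 20, and the 3 values share Hbz or a single library. Without HG 1 the log2 difference was 3.82 for Hbz and 2.03 for Hbe1, the Hbz share in HG was 0.403% and the embryonic beta-like share was 10.9%. The adult sum of this library, 9171 FPKM, lay within the range of the other HG libraries.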

How the results depend on the processing

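The direction of each member's difference was the same in all settings run. Of 501 values recomputed, 454 stayed within the spread between libraries or within 1.5 times a count, 47 moved and 0 reversed. The Hbe2 log2 difference rests on the pseudocount, at 5.09 with 0.01, 0.43 with 1 and 2.66 with voom, because its CON reads are 0. With Hba-a2 and Hbb-bs left out of the sums, the Hbz share was 0.0312% in CON and 0.828% in HG, the beta-like to alpha-like ratio 0.322 and 0.324, and the members' share of FPKM 2.15% and 1.53%. In recovered reads, where the longer Hbe1 weighs more, the embryonic beta-like share was 3.27% in CON and 20.7% in HG and the beta-like to alpha-like ratio 0.250 and 0.279. Without CON 1 and CON 2, 3 iron uptake genes were called in place of 5, and the cause was not tested. Omission of 1 library left 5059 to 5620 genes called, against 5836 with all. The labels do not say whether replicate numbers pair the samples, and no pairing was seen, which does not exclude one. Same-numbered libraries had correlations of deviations from -0.126 to 0.108, and no CON library correlated best with the HG library of its own number. With a replicate block 5096 genes were called. Depth limits Hbz in CON (16 to 35 reads) and Hbe2 in both groups.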
